A study of Mus musculus with 4 samples.

Results

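The genes described here are 33 genes of cholesterol and fatty acid synthesis and of their control, taken by symbol from a table of 55426 genes measured in mouse retinal organoids. All 33 were found in the table, each in a single row, and all 33 passed a filter of a mean of at least 1 FPKM (fragments per kilobase of transcript, scaled to the size of the library), as did 13931 genes in all. By their roles they fall into 8 enzymes of the mevalonate route, 11 enzymes that make sterols from it, 6 regulators or carriers, and 8 enzymes of fatty acid synthesis and desaturation. Other genes of lipid metabolism are given after them as counts.

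Retinal organoids are aggregates of pluripotent cells cultured towards retinal progenitors. All 4 libraries came from day 6 organoids of a single mouse line, labelled as a Mettl3 knockout with an Rx:GFP reporter and a doxycycline-inducible HA-METTL3. METTL3 is the enzyme that methylates adenosines in messenger RNA at the N6 position. The untreated group has 2 libraries and the Dox group has 2, the latter kept in doxycycline (Dox) at 2 µg/ml for 6 days, and both groups grew in the same medium with 5% KSR and AGN at 0.1 µM, names that the labels do not spell out. The labels do not name the promoter that drives the inducible copy, the titles carry an unexplained "EV", and nothing says whether the duplicates came from separate cultures, so p-values measure the spread between these libraries, which may be technical.

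Cells make cholesterol from acetyl-CoA through mevalonate, isoprenoid diphosphates, squalene and lanosterol, and they make fatty acids from the same acetyl-CoA through malonyl-CoA. The membrane-bound transcription factors SREBP1 and SREBP2, encoded by Srebf1 and Srebf2, drive the genes of both routes. When sterols are scarce SCAP escorts them from the endoplasmic reticulum to the Golgi, where they are cut and released, and when sterols are plentiful INSIG proteins hold SCAP back. Dividing progenitors need both products for new membrane.

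Few of these genes differed between Dox and untreated organoids, and none by as much as 2-fold. With limma on log2(FPKM + 1) and adjustment over all 13931 tested genes, 2 of the 33 fell with Dox, Hmgcs1 and Tm7sf2, and 0 rose. That is 6.06% of the 33, against 9.31% of all tested genes called in either direction, 4.87% called lower and 4.44% called higher. The share called is near the background. Before adjustment, limma gave p below 0.05 for 9 lower genes (27.3%) and 2 higher ones (6.06%), against 11.9% and 12.0% of all tested genes, 23.9% in all. The fold change was negative in 20 of the 33, or 60.6%, against 50.8% of all tested genes.

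**Figure D1:**
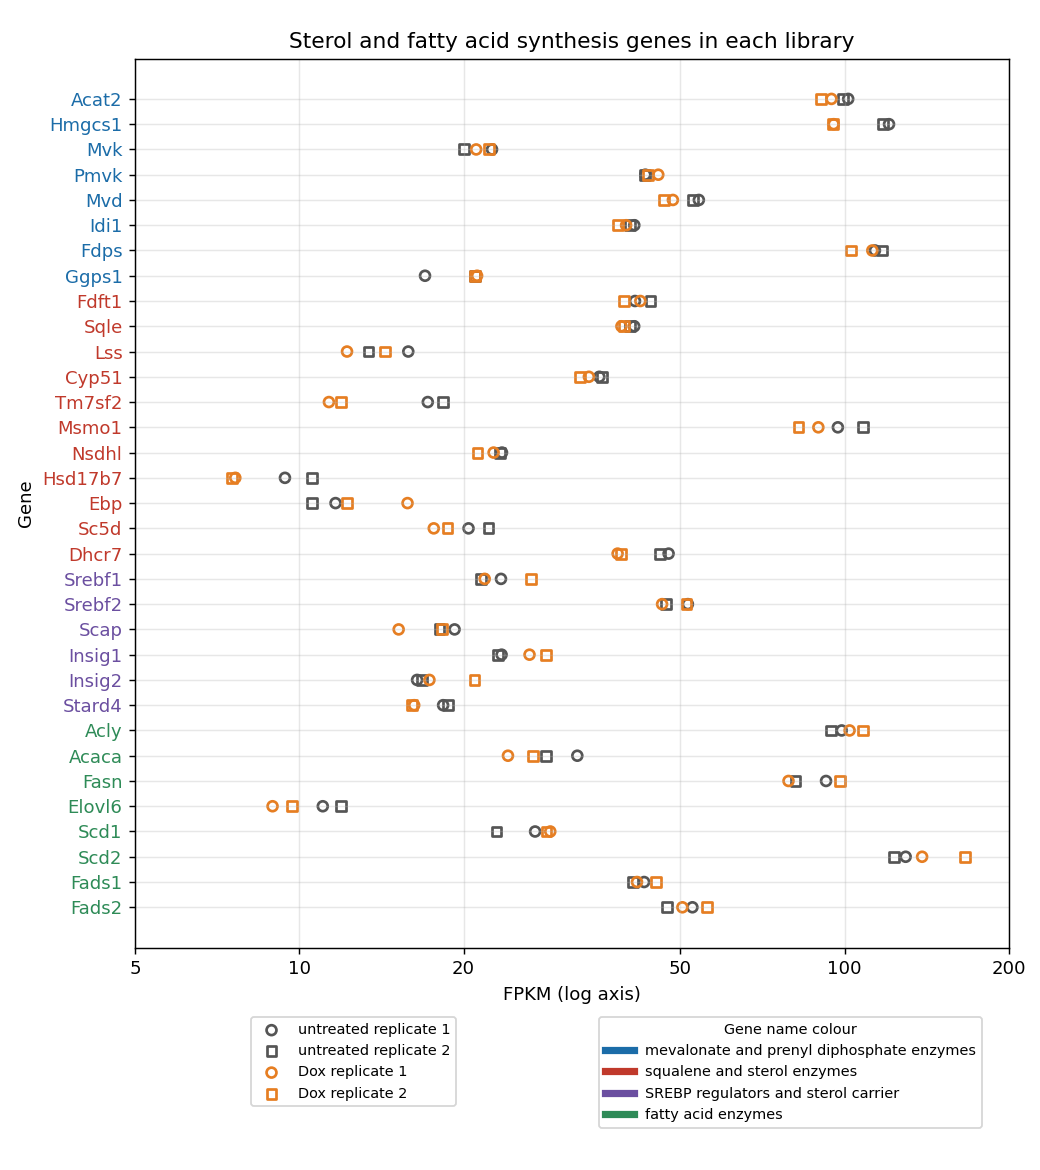
FPKM of each of the 33 genes (log axis) in the 4 libraries; grey marks are untreated and orange marks Dox, circles replicate 1 and squares replicate 2, and the colour of a gene's name gives its role. The 4 marks of a gene lie close together in most rows, while Hmgcs1, Tm7sf2, Hsd17b7 and Dhcr7 show both Dox libraries apart on the left.

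The genes were well expressed in both groups. Their mean over the 4 libraries ran from 8.78 FPKM for Hsd17b7 to 139 FPKM for Scd2, with a median of 34.5 FPKM, and 29 of the 33 lay above the median of all tested genes, 14.4 FPKM. The libraries held 31700000 to 34900000 fragments, as fitted from the steps of single fragments in the low values. At that depth the lowest value of the group, 7.52 FPKM for Hsd17b7 in Dox replicate 2, stands for 246 fragments per kilobase of transcript. The counting error for a kilobase, rather than for the whole transcript, is 6.38%. Summed over the 33 genes, the libraries stood at 1513 and 1479 FPKM without Dox and at 1426 and 1478 FPKM with it. This total differed little, but the roles did not move together. The mevalonate enzymes summed to 514 and 511 FPKM without Dox against 478 and 460 FPKM with it. For the sterol enzymes the sums were 361 and 373 against 330 and 319 FPKM. Those of the fatty acid enzymes overlapped, at 486 and 450 against 474 and 538 FPKM, as did those of the regulators and carriers. None of these sums was rescaled to the total FPKM of its library. That total was 821492 and 863027 without Dox and 866239 and 793308 with it, so small gaps between sums may reflect it.

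The organoids themselves differed strongly with Dox. Of 6 retinal progenitor markers 5 rose, and their summed level was 151 to 163 FPKM without Dox and 790 to 918 FPKM with it. All 7 tested neuron markers of 8 fell, from a sum of 173 to 178 FPKM to one of 89.0 to 93.2 FPKM. All 3 tested pigment epithelium markers of 5 rose, from sums of 2.31 to 2.40 FPKM to sums of 61.2 to 61.9 FPKM. The pluripotency markers gave 0 calls among 4, at sums of 21.1 to 22.6 and 17.0 to 24.7 FPKM. The 7 mesoderm and endoderm markers were below the filter, at sums of 0.900 to 1.01 and 2.02 to 2.57 FPKM. Tyr and Afp were listed at 0 in both untreated libraries, and Afp also in Dox replicate 2. The part of these marker changes in the results below was not tested, and in bulk libraries fewer cells of a type and less RNA per cell cannot be told apart. Mettl3 itself stood at 40.33 and 37.98 FPKM without Dox and at 45.2 and 46.37 FPKM with it (log2 fold change 0.22, adjusted p = 0.122 in limma), and the gene-level value does not separate the inducible copy from the knocked-out locus.

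The mevalonate route opens with Acat2, the cytosolic thiolase that condenses acetyl-CoA, and Hmgcs1, the HMG-CoA synthase. Hmgcs1 (ENSMUSG00000093930, chr13:119690379-119708260, plus strand, mm10) was the only one of the 8 genes of this route that passed the test. That is 12.5% of the route, against 9.31% of all tested genes. The untreated libraries held 120.61 and 117.54 FPKM of Hmgcs1 and the Dox libraries 95.47 and 95.2 FPKM. Both Dox libraries lay below both untreated ones, and the gap was much wider than either pair of replicates. The untreated mean was 119 ± 2.17 FPKM and the Dox mean 95.3 ± 0.191 FPKM (SD, n = 2 each), which gives a log2 fold change of -0.32 with an SE of 0.0613 and, by limma, an adjusted p of 0.0339. On the scale of FPKM + 1 that is 0.802 of the untreated level, with a 95% interval of 0.721 to 0.892. The call was lost without a filter on low values (adjusted p = 0.0615), after rescaling to TPM (0.108), without limma's trend (0.0771) and with the replicate block (0.136). It was also lost when untreated replicate 1, untreated replicate 2, Dox replicate 1 or Dox replicate 2 was left out (adjusted p 0.121 to 0.228), while its fold change kept a value between -0.34 and -0.30 throughout. Its exons share 557 bases with the antisense Gm48342, and since the strand setting is not given, reads of the pair cannot be told apart there.

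The other 7 genes of the route stayed closer to their untreated level and did not pass the test. Acat2 was at 101.51 and 99.13 FPKM without Dox and at 94.58 and 90.46 FPKM with it, a log2 fold change of -0.12 (95% interval -0.28 to 0.04). In the annotation 28.9% of the 100-base stretches of Acat2 transcripts also occur in Acat3, so reads of these genes may have been split between them. Acat3, named after its values were seen, was far lower: it fell from a mean of 3.03 ± 0.134 FPKM without Dox to one of 0.815 ± 0.148 FPKM with Dox (SD, n = 2 per group), with a limma adjusted p of 0.00553.

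Mvk, the mevalonate kinase, had 22.56 and 20.07 FPKM without Dox and 21.1 and 22.25 FPKM with it. Pmvk, the phosphomevalonate kinase, had 43.1 and 42.96 FPKM against 45.52 and 43.52 FPKM. The groups overlapped in Mvk, and the log2 fold changes of both kinases, 0.02 and 0.05, were small. Mvd, the decarboxylase that makes isopentenyl diphosphate, was at 54.03 and 52.63 FPKM without Dox and at 48.42 and 46.61 FPKM with it (log2 fold change -0.16, adjusted p = 0.203 in limma). Both of its Dox libraries were the lower ones. Idi1, the isomerase that follows, and Fdps, which makes farnesyl diphosphate, had log2 fold changes of -0.06 and -0.10. Ggps1, which makes the geranylgeranyl diphosphate used for protein prenylation rather than sterols, was the highest at 0.15, with untreated libraries as far apart as 17 and 20.99 FPKM. Some reads of Fdps and Idi1 may belong to other loci, since 20.5% of the 100-base stretches of Fdps occur in Gm43738 and 15.8% of those of Idi1 in Gm13502.

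The stretch of DNA before the Hmgcs1 start is shown because this gene fell and because it was the only one of the 26 genes with a promoter in RefSeq that held the core of a sterol regulatory element, the sequence that SREBPs are known to bind. The motifs searched were 3: the core TCACNCCAC, the CCAAT box (the site of NF-Y, a partner of SREBPs) and the GC box GGGCGG (the site of Sp1), each on both strands. The promoters of Sc5d, a sterol enzyme below its untreated level that did not pass the test, and of Fasn, a fatty acid enzyme with a fold change near 0, are set beside it. Each line gives the 250 bases before the RefSeq start (GRCm38.p6) on the gene's own strand, 5′ to 3′, with every match to the 3 motifs in capitals; none of the 3 stretches overlaps an annotated exon.
Hmgcs1, chr13:119690101-119690350, plus strand: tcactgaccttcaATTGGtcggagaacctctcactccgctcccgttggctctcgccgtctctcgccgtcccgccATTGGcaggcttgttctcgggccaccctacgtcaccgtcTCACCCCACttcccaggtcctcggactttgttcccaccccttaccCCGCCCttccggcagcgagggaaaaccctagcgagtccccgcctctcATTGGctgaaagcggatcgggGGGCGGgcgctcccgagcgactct
Sc5d, chr9:42264301-42264550, minus strand: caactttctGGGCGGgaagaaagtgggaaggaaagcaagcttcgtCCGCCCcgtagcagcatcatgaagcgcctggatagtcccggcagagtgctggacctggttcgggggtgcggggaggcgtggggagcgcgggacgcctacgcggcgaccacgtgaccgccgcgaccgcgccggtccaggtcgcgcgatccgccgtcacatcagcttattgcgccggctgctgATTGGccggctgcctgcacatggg
Fasn, chr11:120824548-120824797, minus strand: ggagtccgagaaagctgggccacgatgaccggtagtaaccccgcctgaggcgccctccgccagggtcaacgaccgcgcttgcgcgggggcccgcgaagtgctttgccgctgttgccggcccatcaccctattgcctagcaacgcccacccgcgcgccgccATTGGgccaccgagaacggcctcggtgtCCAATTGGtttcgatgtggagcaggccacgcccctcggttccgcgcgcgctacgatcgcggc

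The core in Hmgcs1 begins 137 bases before the start and lies among 3 CCAAT boxes, all in the reverse orientation, at 237, 176 and 45 bases. The Fasn stretch has 3 CCAAT boxes, of which 2 overlap by sharing bases, and 0 GC boxes. Sc5d has 1 CCAAT box and 2 GC boxes. RefSeq gave promoters for 26 of the 33 genes. None was available for Fdps, Fdft1, Sqle, Stard4, Scd1, Scd2 and Fads1, so these genes were not searched for the core. Over windows of 300 bases, from 250 before to 50 after the start, the core was found in 1 of the 26 genes (3.85%), against 1.40% of 9504 tested genes and 1.44% of all 27025 genes with a promoter there. A CCAAT box was found in 21 of the 26 (80.8%), against 43.9% of tested genes and 41.1% of all. A GC box was also found in 21 (80.8%), against 71.4% and 38.2%. These matches describe letters only, and SREBP sites that depart from the core would be missed.

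The 11 enzymes that carry farnesyl diphosphate to cholesterol had the lowest fold changes of the 33 genes as a group. Of the 11, 10 had a negative fold change, also in every alternative setting tried, with a median log2 fold change of -0.13 against -0.0042 over all tested genes. Only Tm7sf2 passed the test, as a fall (9.09%, against 4.87% of all tested genes called lower), and 0 rose. In 8 of the 11 both Dox libraries lay below both untreated ones, or 72.7%, against 26.9% of all tested genes.

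Tm7sf2 (ENSMUSG00000024799, chr19:6062821-6068373, minus strand, mm10), a sterol reductase that acts after lanosterol is demethylated, had the largest change of the 33. It was listed at 17.2 and 18.32 FPKM without Dox and at 11.33 and 11.91 FPKM with it. The Dox libraries lay well below the untreated ones, with little spread in either pair. The untreated mean was 17.8 ± 0.792 FPKM and the Dox mean 11.6 ± 0.410 FPKM (SD, n = 2 each), which gives a log2 fold change of -0.57 with an SE of 0.0821 and, by limma, an adjusted p of 0.0124. On the scale of FPKM + 1 that is 0.673 of the untreated level, with a 95% interval of 0.584 to 0.776. The call was lost without a filter on low values (adjusted p = 0.0513) and when untreated replicate 1, untreated replicate 2, Dox replicate 1 or Dox replicate 2 was left out (0.0737 to 0.109). Its annotated exons share 532 bases with Vps51 on the same strand, so part of its reads is uncertain. Vps51 itself was at 29.77 and 28.72 FPKM without Dox and 29.36 and 29.62 FPKM with it, a log2 fold change of 0.01.

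Among the sterol enzymes the next lowest fold changes were those of Hsd17b7, Dhcr7, Msmo1 and Sc5d, none of which passed the adjusted threshold. Hsd17b7, a ketoreductase of sterol demethylation, was at 9.41 and 10.54 FPKM without Dox and at 7.63 and 7.52 FPKM with it (log2 fold change -0.35, 95% interval -0.60 to -0.11, adjusted p = 0.0914 in limma). Dhcr7, the last reductase on the way to cholesterol, was at 47.55 and 45.79 FPKM against 38.34 and 38.83 FPKM (-0.27, -0.43 to -0.11, adjusted p = 0.0665 in limma). In both genes the Dox libraries agreed closely and lay below the untreated ones. Msmo1, the methylsterol monooxygenase, was at 97.18 and 108.26 FPKM against 89.49 and 82.31 FPKM (-0.25, adjusted p = 0.143 in limma). Sc5d, a sterol desaturase, was at 20.43 and 22.23 FPKM against 17.64 and 18.69 FPKM (-0.22, adjusted p = 0.184 in limma). In both of these genes the groups did not overlap either.

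The enzymes around squalene stayed near their untreated level. Fdft1, the squalene synthase, had a log2 fold change of -0.06 (95% interval -0.25 to 0.12), and Sqle, the squalene epoxidase, also of -0.06 (-0.21 to 0.10). Sqle was at 41.12 and 40.47 FPKM without Dox and at 38.96 and 39.39 FPKM with it, a small shift with close replicates. Lss, the lanosterol synthase, had overlapping groups at 15.84 and 13.39 FPKM against 12.23 and 14.36 FPKM. Cyp51, the lanosterol demethylase, and Nsdhl, a dehydrogenase of the next steps, both had a log2 fold change of -0.09. Ebp, the sterol isomerase, was the exception in direction, at 11.65 and 10.53 FPKM without Dox and at 15.79 and 12.25 FPKM with it. Its log2 fold change of 0.30 was the highest of the 33, and its interval was also the widest, from -0.03 to 0.64 (adjusted p = 0.252 in limma).

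**Figure D2:**
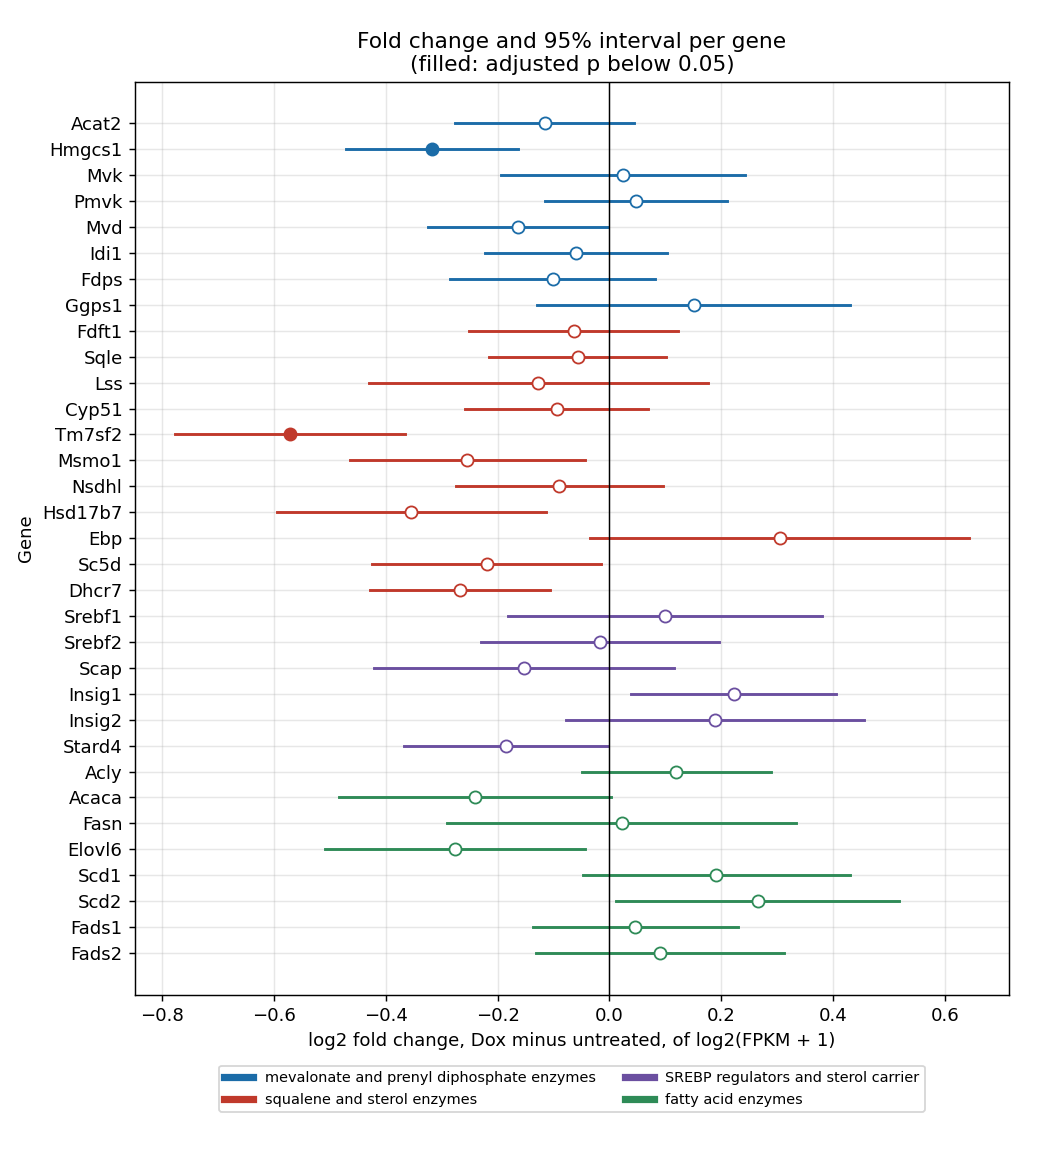
Log2 fold change (Dox minus untreated, of log2(FPKM + 1)) of each of the 33 genes with its 95% interval from limma, coloured by role; filled points passed the threshold of 0.05 after adjustment over all tested genes. Hmgcs1 at -0.32 and Tm7sf2 at -0.57 are the filled points, the sterol enzymes lie left of 0 apart from Ebp, and no interval reaches -1 or 1.

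Of the 6 regulators and carriers 0 passed the test in either direction, against 9.31% of all tested genes. Srebf2, whose product mainly drives sterol genes, was at 51.58 and 47.09 FPKM without Dox and at 46.26 and 51.28 FPKM with it. Srebf1, whose product mainly drives fatty acid genes, was at 23.43 and 21.5 FPKM against 21.87 and 26.61 FPKM. Both genes had overlapping groups, with log2 fold changes of -0.02 (95% interval -0.23 to 0.20) and 0.10 (-0.18 to 0.38). Per length, Srebf2 was the more abundant of the pair in every library, at 1.93 to 2.20 times the level of Srebf1. Scap, the escort protein, was at 19.26 and 18.07 FPKM against 15.21 and 18.27 FPKM, again with overlap.

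The INSIG genes had positive fold changes. Insig1, itself a known SREBP target, was at 23.49 and 23.16 FPKM without Dox and at 26.43 and 28.36 FPKM with it. Both Dox libraries were above, with a log2 fold change of 0.22 (95% interval 0.04 to 0.41), an unadjusted p of 0.0256 and an adjusted p of 0.142 in limma. Insig2 was at 16.44 and 16.76 FPKM against 17.32 and 20.95 FPKM, and its log2 fold change of 0.19 (limma adjusted p 0.360) rested largely on Dox replicate 2. Hmgcs1 and Insig1 had fold changes of opposite sign: the level of Hmgcs1 was 5.08 to 5.13 times that of Insig1 without Dox and 3.36 to 3.61 times with it. Stard4, a carrier of cholesterol between membranes, was at 18.35 and 18.72 FPKM without Dox and at 16.24 and 16.12 FPKM with it, close within each pair (log2 fold change -0.19, adjusted p = 0.202 in limma).

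Of the 8 fatty acid enzymes 0 passed the test in either direction, against 9.31% of all tested genes. A positive fold change was seen in 6 of the 8, and the median log2 fold change was 0.07. Acly, which makes cytosolic acetyl-CoA from citrate, was at 98.76 and 94.49 FPKM without Dox and at 102.11 and 108.05 FPKM with it (log2 fold change 0.12). Acaca, the acetyl-CoA carboxylase that commits carbon to fatty acids, was at 32.34 and 28.31 FPKM against 24.13 and 26.84 FPKM (-0.24, adjusted p = 0.212 in limma). Fasn, the fatty acid synthase, was at 92.44 and 81.27 FPKM against 78.89 and 98.23 FPKM. These neighbouring steps thus had a positive, a negative and a near-zero fold change, and in Fasn the replicates of a group differed more than the groups did. Of the 100-base stretches of Acaca 23.6% also occur in Gm5182, so its level is uncertain to that extent.

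Elovl6, which lengthens palmitate, was at 11.04 and 11.93 FPKM without Dox and at 8.93 and 9.69 FPKM with it. Its log2 fold change of -0.28 (95% interval -0.51 to -0.04) was the lowest of the fatty acid enzymes and did not pass after adjustment (adjusted p = 0.149 in limma). Scd1 and Scd2 encode stearoyl-CoA desaturases, which place the double bond of oleate. Scd2 was the most abundant of the 33 genes per length, at 129.38 and 122.96 FPKM without Dox and at 138.69 and 166.08 FPKM with it. Scd1 was lower, at 27.06 and 22.99 FPKM against 28.85 and 28.4 FPKM, and Scd2 stood at 4.78 to 5.85 times its level in the 4 libraries. Neither passed the test, at log2 fold changes of 0.27 (adjusted p = 0.193 in limma) for Scd2 and 0.19 (adjusted p = 0.302 in limma) for Scd1, though both Dox libraries were above in each. Fads1 and Fads2, the desaturases of polyunsaturated fatty acids, had overlapping groups and log2 fold changes of 0.05 and 0.09.

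The intervals of these values reflect the spread between these libraries, which may be technical. They are not adjusted for the number of genes, and they do not bound differences between separate cultures. For 28 of the 33 genes the 95% interval of the log2 fold change lay between -0.5 and 0.5, and for all 33 between -1 and 1. The widest bounds were -0.78 for Tm7sf2 and 0.64 for Ebp. The median absolute log2 fold change was 0.15 over the 33 genes, 0.13 over all tested genes and 0.85 over the called genes of the whole table. A change of at least 2-fold was seen in 0 of the 33 and in 4.09% of all tested genes. The groups did not overlap in 23 of the 33 genes (69.7%), against 53.4% of all tested genes. Both Dox libraries were below in 16 (48.5%, against 26.9%) and above in 7 (21.2%, against 26.5%).

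**Figure D3:**
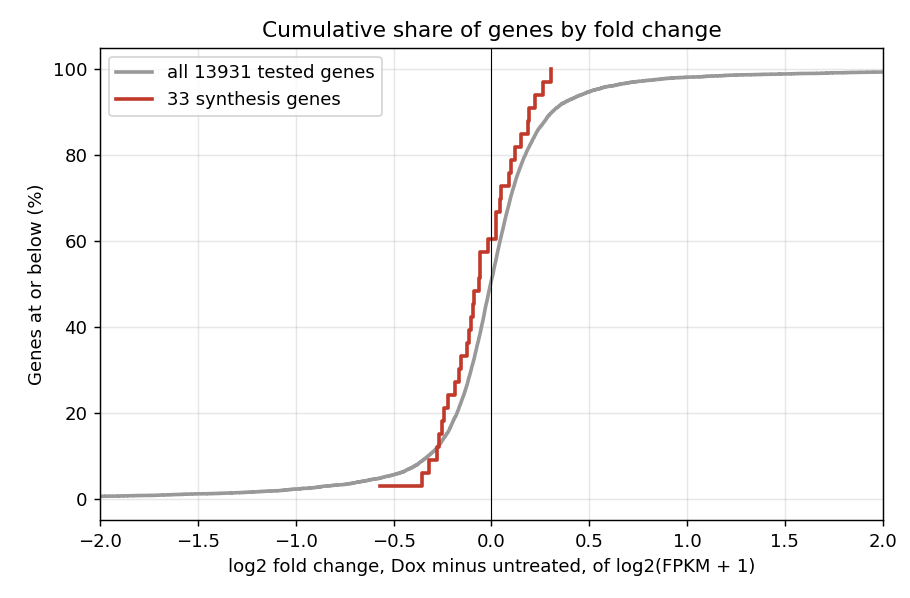
Cumulative share of genes (%) at or below a given log2 fold change (Dox minus untreated, of log2(FPKM + 1)) for the 33 synthesis genes in red and all 13931 tested genes in grey; the axis is limited to -2 to 2. The red curve has no long tails, ending at -0.57 and 0.30, and its median of -0.06 lies slightly left of the grey one.

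Replicates differed by role. In 7 of the 8 fatty acid enzymes untreated replicate 1 was above untreated replicate 2, and in 7 of the 8 Dox replicate 2 was above Dox replicate 1. Over all tested genes these shares were 51.6% and 55.5%. Fasn had the largest such difference among them within the Dox pair, 0.31 on the log2(FPKM + 1) scale, with Scd2 at 0.26. Among the regulators Srebf1 differed by 0.27, Insig2 by 0.26 and Scap by 0.25 in the same direction. In the mevalonate route Dox replicate 2 was above Dox replicate 1 in 1 of 8 genes, and in the sterol enzymes in 5 of 11. Without Dox replicate 2 the median log2 fold change of the fatty acid enzymes was 0.0028, and without Dox replicate 1 it was 0.16. For the regulators these medians were -0.06 and 0.15, against 0.04 with all libraries. The median of the sterol enzymes was negative in each case, at -0.19 and -0.14.

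**Figure D4:**
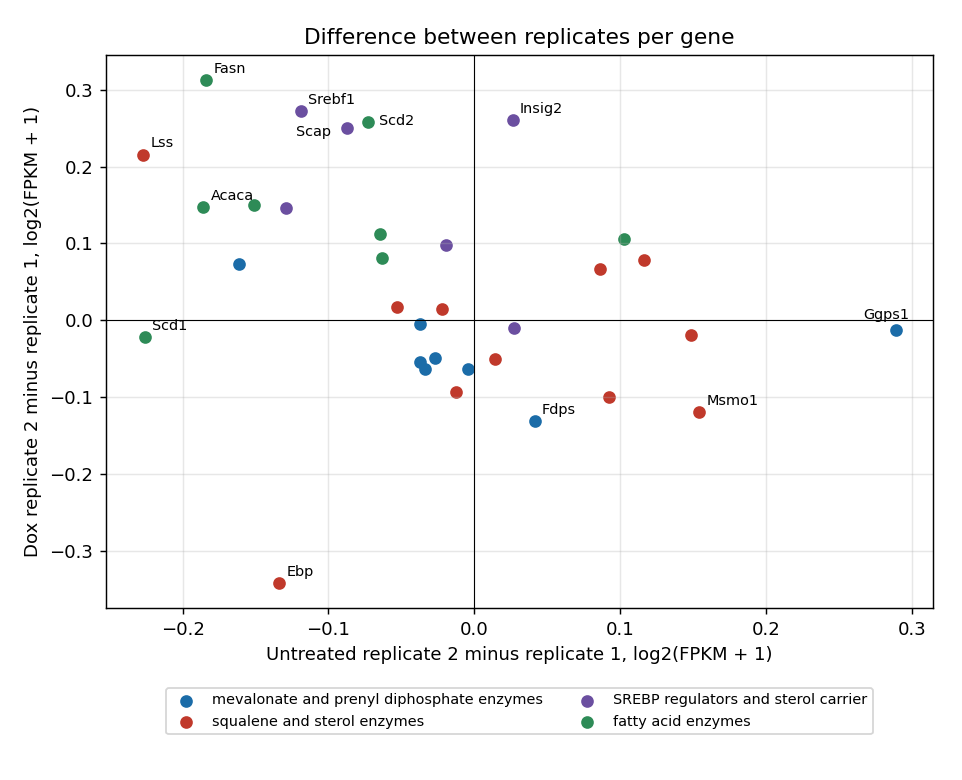
Difference between replicates on the log2(FPKM + 1) scale, replicate 2 minus replicate 1, for each of the 33 genes, in the untreated pair (horizontal) and the Dox pair (vertical), coloured by role. Most fatty acid enzymes lie in the upper left, with Fasn at 0.31 on the vertical axis, while Ebp lies lowest at -0.34. Genes of the other roles lie in the upper left too, among them Srebf1, Srebf2, Scap, Insig1, Mvk and Lss.

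Few genes in other parts of lipid metabolism passed the test. Of 17 genes for the isoprenoid branches and for SREBP processing, all tested, 0 rose and 0 fell in limma, against 9.31% called overall. Before adjustment 2 higher and 2 lower genes had p below 0.05 (11.8% each, near the 12.0% and 11.9% of all tested genes), and the median log2 fold change was 0.03. Of 21 genes for sterol transport, storage and efflux 17 were tested, of which 1 fell (5.88%, against 4.87% of all tested genes) and 0 rose. That gene was Vldlr, a lipoprotein receptor that also receives the reelin signal, at 13.6 and 10.95 FPKM without Dox and at 6.88 and 7.2 FPKM with it (log2 fold change -0.72, adjusted p = 0.0224 in limma). Of 27 genes for fatty acid supply, elongation and glycerolipid synthesis 24 were tested, of which 1 fell (4.17%) and 0 rose. It was Acsl6, an acyl-CoA synthetase, at 5.05 and 5.07 FPKM against 3.29 and 3.02 FPKM (-0.55, adjusted p = 0.0347 in limma). Before adjustment 6 lower and 2 higher genes of these 24 had p below 0.05 in limma. Both Dox libraries were below in 14 of the 24 (58.3%, against 26.9% of all tested genes) and above in 4. The fold change was negative in 17 of the 24, with a median log2 fold change of -0.087. Mostly negative fold changes were thus not confined to the sterol enzymes.

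Of 21 fatty acid oxidation genes 19 were tested, and 2 rose and 2 fell, 21.1% against the 9.31% called among all tested genes. Both the count and the background share depended on the setting. With TPM 1 gene rose (Hadh) and 0 fell, against 3.78% of all tested genes called higher and 4.01% called lower. Without a filter 1 gene (Hadh) again rose and 0 fell, against 1.22% and 1.49%. With the replicate block 1 rose and 1 fell. Hadh, a mitochondrial dehydrogenase of beta-oxidation, was at 68.27 and 67.33 FPKM without Dox and at 111.02 and 107.57 FPKM with it. The untreated mean was 67.8 ± 0.665 FPKM and the Dox mean 109 ± 2.44 FPKM (SD, n = 2 each). The rise of 0.68 on the log2 scale (SE 0.0619) had a limma adjusted p of 0.00240 and kept its call in all 14 alternative settings. Slc25a20, the carrier that brings acylcarnitines into mitochondria, was at 12.01 and 12.28 FPKM against 16.83 and 16.91 FPKM, a rise of 0.44 (adjusted p = 0.0228 in limma). Of 4 acyl-CoA dehydrogenases tested, Acadl and Acadm fell, while Acads (log2 fold change 0.15, adjusted p = 0.336 in limma) and Acadvl (0.03, 0.872) did not pass. Acadl was at 19.53 and 17.54 FPKM against 13 and 12.54 FPKM (-0.50, adjusted p = 0.0243 in limma), and Acadm at 40.44 and 39.91 FPKM against 29.65 and 32.53 FPKM (-0.36, adjusted p = 0.0427 in limma). The median log2 fold change of the list was 0.03. The calls of Slc25a20, Acadl, Acadm and Acsl6 were lost when any of the 4 libraries was left out (adjusted p 0.0812 to 0.218), with TPM (0.0655 to 0.165) and without a filter on low values (0.0530 to 0.116). With the replicate block Slc25a20 (0.0647), Acadm (0.0979) and Acsl6 (0.0679) lost theirs, and without the trend Acadm did (0.0764). The call of Vldlr was lost without untreated replicate 1, Dox replicate 1 or Dox replicate 2 (0.116 to 0.134) or without a filter on low values (0.110).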

How the data were processed

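Poly(A) RNA of the 4 libraries was sequenced in pairs. The authors deposited FPKM values per gene and library, rounded to 2 decimals, and the submitters' processing notes name STAR, Cuffdiff and mm10; versions, annotation release and strand setting are not given in the sources used here. FPKM is not a count, so log2(FPKM + 1) was fitted by limma 3.58.1 (R 4.3.3; lmFit, then eBayes with trend) over all 4 libraries, no covariates, for 13931 genes whose mean FPKM was 1 or more. Two-sided p-values were adjusted over these genes by Benjamini-Hochberg with a threshold of 0.05. The pipeline was tested on simulated data with 200 changed genes, each changed by at least 2-fold. It made 178 calls and recovered 81.5% of the changed genes. Of these calls 8.43% were false, a larger share than the threshold of 0.05 aims at. With 0 changed genes it made 0 calls. Changes as small as those of the synthesis genes were not simulated, so their recovery is not known. Fold changes on this scale understate changes of low genes. For a single gene, 2 against 2 libraries allow no exact permutation p below 0.333. Intervals are 95% intervals of the moderated test. Depth was fitted with numpy 2.4.6 from steps of single fragments in genes with 1 transcript. It was chosen to bring low values closest to whole fragments. At the chosen depth 88.5% to 89.6% of low values came within 0.15 of whole fragments, against 13.0% to 16.3% at a wrong depth set by hand. Since the same values chose the depth, this contrast is no independent check of it.

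Positions, exon overlaps and shared sequence came from GENCODE M21 (GRCm38, that is mm10) and promoters from RefSeq (GRCm38.p6). Exons of 12 of the 33 genes overlap another gene (Cyp51, Srebf1, Fdft1, Ggps1, Tm7sf2, Scd2, Scap, Lss, Elovl6, Idi1, Fdps and Hmgcs1), and their values are uncertain to that extent. The genes named are the 33, Mettl3, and up to 4 called genes per list with the largest fold change. Acat3, Vps51, Tyr, Afp, Acads, Acadvl and the genes of the closing observations fall outside this rule and were named after their values were seen. The genes and lists were chosen with earlier results of these data known. A further list of neural markers is not reported here. Alternatives were other pseudocounts (0.1, 5), filters (none, 5 FPKM), scalings (TPM, median, quantile), eBayes without trend or with robust estimation, the replicate block, and each library left out.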

Additional observations from a re-analysis of the deposited data

How the results depend on the processing

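The number of called genes in the whole table was 1297, 745 without a filter (27532 genes tested) and 821 with a minimum mean of 5 FPKM (10342 tested). It was 593 to 697 when each library was left out in turn, fits in which the lone library of a group is assumed to vary like the other group. The count of the 33 genes that fell was 2, which became 0 without a filter and 0 in each fit that left out a library. It became 1 (Tm7sf2) with rescaling to TPM, without the trend, and with the replicate block. No setting called any of the 33 higher. No sign was found that replicate numbers pair the libraries: deviations of same-numbered libraries from their group means had r = -0.043 across 13931 genes, and the block gave 1134 calls in all. The median log2 fold change of the 33 was -0.064, with -0.042 after rescaling to TPM and -0.081 to -0.046 without 1 library.

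Of 462 refitted values of the 33 genes, 440 kept their sign and their side of the threshold, 13 lost the call and 9 changed sign, in 5 genes that had not been called. With TPM, Srebf2 became 0.0054. With 1 library left out, the log2 fold change ranged from -0.090 (without Dox replicate 2) to 0.056 (without Dox replicate 1) for Srebf2, which was also positive without untreated replicate 1 (0.048). The range was -0.056 (without untreated replicate 2) to 0.11 for Mvk, -0.13 (without Dox replicate 2) to 0.18 for Fasn, -0.036 (without Dox replicate 2) to 0.24 for Srebf1 and -0.0099 (without Dox replicate 2) to 0.10 for Fads1. Mvk (-0.012) was also negative without Dox replicate 2, and Fasn (-0.070) without untreated replicate 2. Fewer tested genes or samples enter some of these fits by construction; otherwise the cause was not tested.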

Other observations

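Genes tied to the sterol-sensing LXR receptors gave mixed values. Nr1h2, which encodes an LXR receptor, was at 24.54 and 24.02 FPKM without Dox and 29.82 and 29.58 FPKM with it, and just missed the threshold (log2 fold change 0.28, adjusted p = 0.0651 in limma). Nr1h3, which encodes the other LXR receptor, had overlapping groups, at 1.67 and 2.58 FPKM against 2.49 and 3.47 FPKM (0.35, adjusted p = 0.362 in limma). Mylip, a known LXR target that encodes a ubiquitin ligase for lipoprotein receptors, was below the filter and not tested, at 0.44 and 0.47 FPKM without Dox and at 0.98 and 0.82 FPKM with it. The sterol exporters Abca1 and Abcg1, also known LXR targets, showed little difference. Abca1 was at 1.14 and 0.98 FPKM against 1.18 and 1.3 FPKM (0.12, adjusted p = 0.644 in limma), and Abcg1, not tested, at 0.18 and 0.17 FPKM against 0.17 and 0.18 FPKM. Lpin2, a phosphatidate phosphatase of glycerolipid synthesis, just missed the threshold in the other direction, at 20.04 and 19.74 FPKM against 14.64 and 15.88 FPKM (-0.36, adjusted p = 0.0511 in limma). All genes named under these other observations were picked after their values were seen.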
